A study of Mus musculus with 6 samples.

Results

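The genes described here were grouped as secreted Wnt inhibitors and Wnt feedback genes, and whether each restrains Wnt signaling in these cells was not tested. The 10 genes were read from the array by their gene names: Wif1, Sfrp1, Sfrp2, Sfrp5, Frzb, Dkk1, Dkk2, Dkk3, Apcdd1 and Axin2. They are 10 of the 24082 gene symbols on the array and are covered by 11 probes of 60 bases, a single probe for each gene apart from Axin2, which has 2. Expression was compared between A+/G+ and A-/G+ cells, the ACSA-2 positive and ACSA-2 negative fractions of GLAST-positive cells from the cerebellum of newborn wild-type CD1 mice at postnatal days 1 to 3. ACSA-2 is an epitope of the ATPase subunit encoded by Atp1b2, and GLAST is the glial glutamate transporter encoded by Slc1a3. Each fraction comprised 3 biological replicates of 50000 magnetically sorted cells from pooled cerebella of either sex, hybridized on 1 array each with the dye Cy3. A+/G+ cells were taken with Anti-ACSA-2 beads alone. A-/G+ cells were instead left after beads against L1CAM, ACSA-2, CD45, PSA-NCAM and Ter119 had removed other cells, and were then selected for GLAST. No treatment is named for either fraction, and the question that the arrays address is how gene expression differs between these glial precursor fractions.

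Wnt proteins are secreted lipid-modified ligands that bind Frizzled receptors and their LRP co-receptors, which in the canonical branch stabilizes β-catenin and switches on target genes. Secreted inhibitors act upstream of the receptors: WIF1 and the secreted Frizzled-related proteins bind Wnt ligands themselves, whereas Dickkopf proteins such as DKK1 bind the LRP co-receptors. Other brakes are target genes of the pathway, so that Axin2, a scaffold of the β-catenin destruction complex, is widely read as a feedback gene of canonical signaling. In the developing cerebellum, Wnt signaling is known for its early role in the midbrain-hindbrain region from which the cerebellum forms.

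The arrays differed in brightness between the fractions. The 75th percentile of the signal before normalization lay between 332 and 334.4 on the A+/G+ arrays and between 56.62 and 250.9 on the A-/G+ arrays, and the number of probes well above background lay between 26476 and 26655 and between 18340 and 24730, respectively. The A+/G+ samples shared slide 1 and the A-/G+ samples shared slide 2, and the effects of slide and fraction cannot be told apart. Atp1b2, the gene of the sorting epitope, was 2.16 higher in A+/G+ on the log2 scale (adjusted p = 0.00725), and Slc1a3 was 1.19 higher in A-/G+ without passing the test (adjusted p = 0.0733). The Bergmann glia list had 6 of 9 genes past the test, all of them higher in A-/G+, and the astrocyte list had 8 of 10 past it, 7 of them higher in A+/G+.

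Values below are log2 signals after quantile normalization, and differences are those of the group means. A gene passed the test when the limma fit over all 55681 probes gave a Benjamini-Hochberg adjusted p of at most 0.05, and its value is that of its brightest probe over the 6 arrays. The exact permutation test over 3 arrays against 3 cannot give a two-sided p below 0.1 for a single gene. Levels of different genes were not compared, since probes differ in their response. Sums over marker lists serve to compare arrays, and a gene's share of such a sum is a share of signal, not of RNA. In sorted samples of this kind, fewer cells of a type and less RNA per cell cannot be told apart.

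The probes on which the results turn are shown by the first 30 of their 60 bases, 5′ to 3′, with G and C in capitals and A and T in lower case. Positions refer to mm9, as annotated by the manufacturer, and cover all 60 bases. The Wif1 and Frzb probes belong to the genes that passed the test, the Dkk1 probe to the gene that was never above background, and the Axin2 probes are shown because they differed in brightness.
Wif1, chr10:120537079-120537138, plus strand: GGCtGatatCtaCtCttCCttttaGGtttt
Frzb, chr2:80252582-80252641, minus strand: GtGCaCCaGGGtGttatttaaCaGaGGtat
Dkk1, chr19:30621424-30621483, minus strand: taCtGtGttGtaaatCCtCaGtGtGGCaCt
Axin2, brighter probe, chr11:108803927-108803986, plus strand: tCCtGGGGGaaCaGattattattGCtaCtC
Axin2, dimmer probe, chr11:108812034-108812093, plus strand: CttGGtaCaataattattGtaattaaGaGa
G and C made up 38.3% of the 60 bases of the Wif1 probe, 35% of the Frzb probe and 35% of the Dkk1 probe. They made up 48.3% of the brighter Axin2 probe but 20.0% of the dimmer probe. Over the 11 probes of these genes the share ran from 20.0% to 48.3%, and over all 55681 probes it ran from 15% to 91.7% with a median of 43.3%. The Wif1 probe, the dimmer Axin2 probe and the Dkk3 probe, 3 of the 11, had a stop codon in each of the 3 forward reading frames as printed, whereas the brighter Axin2 probe had none in any frame. Whether a probe lies in a coding exon or a UTR was not determined, as no mm9 gene models were used here. The probes of the other genes lie on chromosomes 8 (Sfrp1), 3 (Sfrp2 and Dkk2), 19 (Sfrp5), 7 (Dkk3) and 18 (Apcdd1).

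Of the 10 genes, Frzb was higher in A+/G+, Wif1 was higher in A-/G+, and 8 did not pass the test. Over all probes, 9.29% passed, 4.65% with the higher signal in A+/G+ and 4.64% in A-/G+, so that 1 gene of 10 in each direction stands beside a background of about 1 in 20. With the signal of each array shifted to its own 75th percentile instead, the probes that passed split into 1227 for A+/G+ and 2658 for A-/G+, against 2589 and 2583 after quantile normalization. The measured medians of both genes were also at least 4-fold apart, beside 1.53% of all probes that passed with such medians in the direction of A+/G+ and 0.399% in the direction of A-/G+. For Frzb this does not establish a 4-fold difference, since its A-/G+ median is a background value and its medians were 1.7-fold apart with normexp background correction. The median difference of the 10 genes, A+/G+ minus A-/G+, was -0.09, beside -0.04 over all probes. The arrays of the fractions did not overlap for 7 of the 10 genes, with A+/G+ above for 4 and A-/G+ above for 3, whereas 37.1% of all probes did not overlap, 12.7% with A+/G+ above and 24.3% with A-/G+ above. For 8 of the 10 genes the replicates were farther apart in A-/G+, with SDs from 0.126 to 1.23, than in A+/G+, with SDs from 0.0699 to 0.511. The A-/G+ arrays also differed more in brightness, and the share over all probes was not counted. The spread is therefore not read as a trait of these genes.

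**Figure D1:**
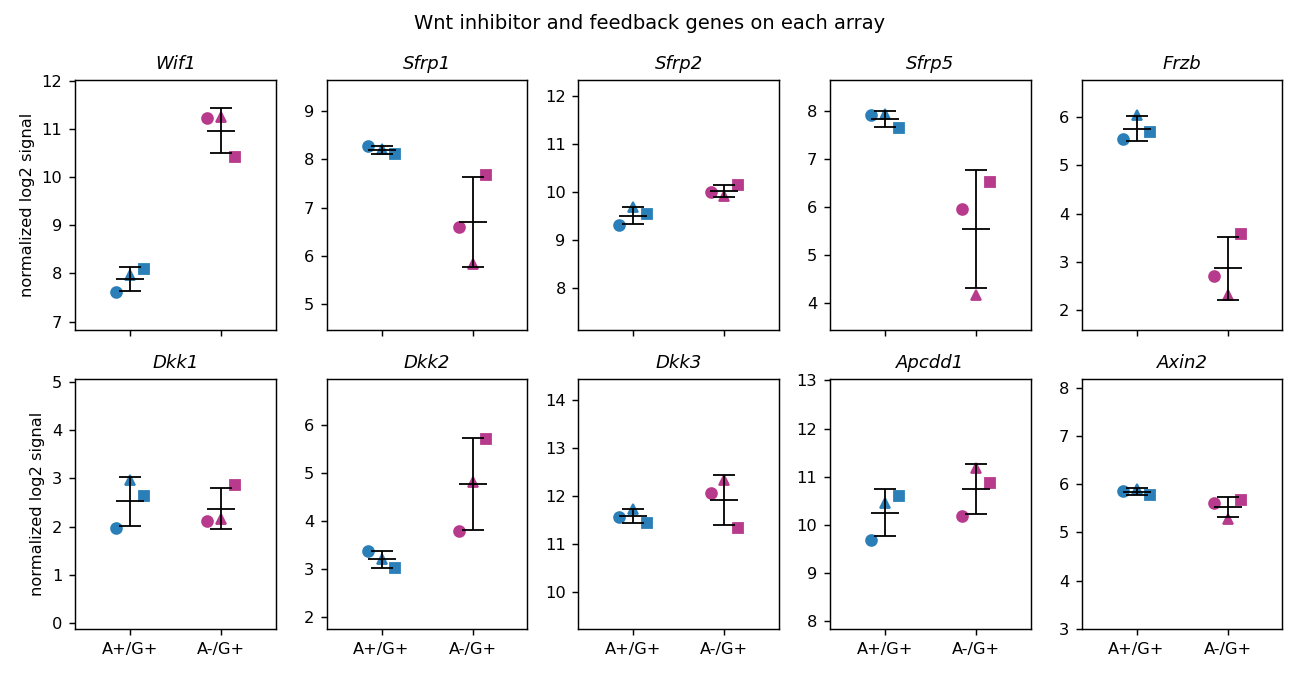
Normalized log2 signal (vertical axes, each spanning the same number of log2 units) of the 10 genes in A+/G+ (blue) and A-/G+ (magenta) cells. Circles, triangles and squares are replicates 1, 2 and 3, and black lines give the mean with the SD (n = 3). Wif1 lies between 7.61 and 8.09 in A+/G+ and between 10.43 and 11.25 in A-/G+, whereas Frzb lies between 5.56 and 6.06 in A+/G+ and between 2.31 and 3.58 in A-/G+.

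Wif1 encodes WNT inhibitory factor 1, a secreted protein that binds Wnt ligands through its WIF domain. Its log2 signal was 7.61, 7.98 and 8.09 in A+/G+ replicates 1, 2 and 3 and 11.23, 11.25 and 10.43 in A-/G+ replicates 1, 2 and 3. Every A-/G+ array thus lay above every A+/G+ array, and the probe was well above background on all 6. The means were 7.89 ± 0.25 (SD, n = 3) and 10.97 ± 0.47 (SD, n = 3), and the difference of -3.08 (SE 0.281, 95% interval -3.80 to -2.35) passed the test (limma, adjusted p = 0.00849). The medians were 9.56-fold apart. With any single array left out, Wif1 still passed the test. Profiles were compared by the root mean square distance of centred log2 signals over the 6 arrays. Among 11337 candidate genes well above background on all 6, the most similar were the homeobox gene Msx2 (0.113), Ccbe1 (0.127) and the adhesion molecule gene Kirrel2 (0.171).

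Among the secreted Frizzled-related proteins, which carry a cysteine-rich domain like that of Frizzled receptors, Frzb was the gene that passed the test. Frzb, also named Sfrp3, had log2 signals of 5.56, 6.06 and 5.69 in A+/G+ and of 2.70, 2.31 and 3.58 in A-/G+. All A+/G+ arrays lay above all A-/G+ arrays, and on 0 of the A-/G+ arrays was the probe well above background. The measured difference was 2.91 (SE 0.366, 95% interval 1.96 to 3.85, limma, adjusted p = 0.0166) with medians 7.94-fold apart, but as the A-/G+ level has only a limit, Frzb is given as at least 1.86-fold higher in A+/G+. That limit sets the A+/G+ mean against the mean, per A-/G+ array, of the lowest signal of any probe well above background, or of the Frzb signal if brighter. With normexp background correction, Frzb passed the test with a smaller difference of 0.77 and medians 1.7-fold apart. The limit of 1.86-fold thus holds for the main processing only. The call depended on single arrays: the adjusted p was 0.0643, 0.0756 and 0.0761 without A+/G+ replicate 1, 2 or 3 and 0.0501 without A-/G+ replicate 1. Candidates for similar profiles were 11338 genes well above background on all 6 arrays. The closest were Adm, which encodes the peptide adrenomedullin (distance 0.248), the carbonic anhydrase gene Car2 (0.251) and the chemokine gene Cxcl14 (0.27). Since the Frzb signals in A-/G+ were background values, these distances compare measured signals only.

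The other Frizzled-related genes did not pass the test and did not share a direction. Sfrp5 had log2 signals of 7.91, 7.92 and 7.63 in A+/G+ and of 5.95, 4.16 and 6.52 in A-/G+, so that all A+/G+ arrays lay above all A-/G+ arrays. Its difference of 2.28 (SE 0.646, 95% interval 0.616 to 3.95) had an adjusted p of 0.107, and the A-/G+ replicates were spread over a wider range than those of any other gene here. The probe was well above background on 2 of the 3 A-/G+ arrays, and without A-/G+ replicate 2 the difference was 1.59 with an adjusted p of 0.0433 (limma). With normexp background correction, Sfrp5 differed by 1.23 (limma, adjusted p = 0.0205).

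Sfrp1 had log2 signals of 8.28, 8.21 and 8.12 in A+/G+ and of 6.59, 5.83 and 7.68 in A-/G+. Here too the fractions did not overlap, with A-/G+ replicate 3 closest to the A+/G+ arrays, and the difference was 1.5 (SE 0.487, 95% interval 0.246 to 2.76, limma, adjusted p = 0.146). Without A-/G+ replicate 3 it was 1.99 with an adjusted p of 0.0204 (limma). Sfrp2 lay in the opposite direction and was well above background on all 6 arrays. Its log2 signals were 9.32, 9.69 and 9.54 in A+/G+ and 9.996, 9.92 and 10.16 in A-/G+, a difference of -0.51 (SE 0.124, 95% interval -0.829 to -0.189) that did not pass the test (limma, adjusted p = 0.0751).

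The Dickkopf genes had 0 of 3 members past the test. Dkk3, the most divergent member of the family, had log2 signals of 11.57, 11.72 and 11.44 in A+/G+ and of 12.07, 12.34 and 11.33 in A-/G+. The fractions overlapped, since A-/G+ replicate 3 was the lowest of the 6 arrays, and the difference of -0.34 (SE 0.285, 95% interval -1.07 to 0.399) had an adjusted p of 0.55 (limma). Dkk2 had log2 signals of 3.37, 3.22 and 3.01 in A+/G+ and of 3.79, 4.82 and 5.70 in A-/G+. All A-/G+ arrays lay above all A+/G+ arrays, but 1 of the A-/G+ arrays and 0 of the A+/G+ arrays held the probe well above background, and no fold is given. Its measured difference was -1.57 (SE 0.506, 95% interval -2.87 to -0.262, limma, adjusted p = 0.145). Without A-/G+ replicate 1 the difference was -2.06 with an adjusted p of 0.0468. The 75th percentile shift gave -2.21 with an adjusted p of 0.0286 (limma), beside a median of -1.02 over all probes under that shift.

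Dkk1, which blocks canonical signaling at the LRP co-receptors, was well above background on 0 of the 6 arrays. Its log2 signals of 1.97, 2.97 and 2.64 in A+/G+ and of 2.11, 2.16 and 2.86 in A-/G+ overlapped, and no fold is given. The measured difference of 0.16 (SE 0.347, limma, adjusted p = 0.804) changed sign to -1.22 with the 75th percentile shift, to -0.00479 with normexp background correction and to -0.07 without A+/G+ replicate 2. The -1.22 stands beside a median of -1.02 over all probes under that shift, and is not read as a change of Dkk1. A difference in Dkk1 was therefore not detectable at this signal.

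**Figure D2:**
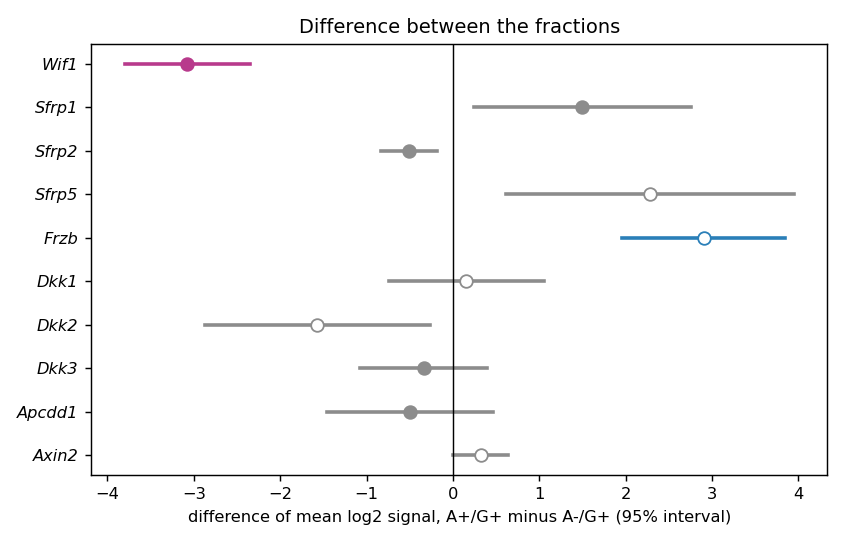
Difference of the mean log2 signal, A+/G+ minus A-/G+ (horizontal axis), with its 95% interval, for the 10 genes. Blue and magenta mark the genes that passed the test with higher signal in A+/G+ and A-/G+, grey the genes that did not, and open circles the genes not well above background on at least 1 array. Wif1 lies at -3.08 with all arrays well above background. Frzb lies at a measured 2.91 but is given as at least 1.86-fold higher in A+/G+, a limit of this processing. The intervals of Dkk1, Dkk3 and Apcdd1 span 0.

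Apcdd1 encodes a membrane glycoprotein that inhibits Wnt signaling at the cell surface. Its log2 signals were 9.69, 10.45 and 10.60 in A+/G+ and 10.18, 11.18 and 10.87 in A-/G+, all well above background. The fractions overlapped, as A-/G+ replicate 1 lay below A+/G+ replicates 2 and 3, and the difference was -0.50 (SE 0.372, 95% interval -1.46 to 0.465, limma, adjusted p = 0.518).

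Axin2, the intracellular feedback gene, did not pass the test by either probe. Its brighter probe gave 5.86, 5.91 and 5.77 in A+/G+ and 5.61, 5.28 and 5.67 in A-/G+, with all A+/G+ arrays above all A-/G+ arrays. The difference of 0.32 (SE 0.123, 95% interval 0.00472 to 0.640) had an adjusted p of 0.208 (limma), and 3 A+/G+ and 2 A-/G+ arrays held it well above background. The dimmer probe, with the lowest G and C share of the 11 probes, did not reach the limit for well above background on any array, ranged from 1.97 to 2.32 in A+/G+ and from 1.99 to 2.04 in A-/G+, and had a difference of 0.08 (limma, adjusted p = 0.693). It therefore gives no reading of Axin2 beyond background.

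The remaining Wnt pathway genes were taken as 6 lists with 80 genes, all of them on the array. Of these, 11 (13.8%) passed with the higher signal in A+/G+ and 6 (7.5%) with the higher signal in A-/G+, beside 4.65% and 4.64% of all probes. Among the 17957 probes well above background on all 6 arrays the shares were 7.01% and 11.9%. Not all of the 80 genes belong to that set, and the shares of those that do were not counted. The median difference of the 80 genes was -0.03, close to the -0.04 of all probes. These counts depended on the arrays: without any 1 of the A+/G+ replicates they were 3 and 3, and without A-/G+ replicate 3 they were 19 and 11. Of the 17 genes, 6 passed the test whichever A+/G+ array was left out, namely Wnt5b, Fzd9 and Rspo2 with higher signal in A+/G+ and Sfrp4, Lgr5 and Ccnd1 with higher signal in A-/G+, whereas the same 11 genes did not, with adjusted p from 0.051 to 0.171. Without A-/G+ replicate 1 the calls of Nkd1 and Wnt9a were lost, without A-/G+ replicate 2 those of Wnt4 and Dvl1, and without A-/G+ replicate 3 that of Nkd1, with adjusted p from 0.0593 to 0.0944.

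Of 13 other Wnt inhibitors, 1 was higher in each fraction and 11 did not pass the test. Sfrp4, a further Frizzled-related inhibitor, had log2 signals of 6.10, 6.004 and 6.06 in A+/G+ and of 8.08, 8.13 and 7.75 in A-/G+. It was 1.93 higher in A-/G+ (limma, adjusted p = 0.00415), with medians 4.05-fold apart and no overlap of the arrays. Igfbp4, an insulin-like growth factor binding protein that can also antagonize Wnt receptors, was 1.21 higher in A+/G+ (limma, adjusted p = 0.0152). For Dkk4, Kremen2, Sost and Cer1, 0 of the 6 arrays were well above background.

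Of 9 other feedback and target genes, 3 passed the test, all with the higher signal in A-/G+. Lgr5, a receptor for R-spondins and a Wnt target, had log2 signals of 5.49, 5.59 and 5.49 in A+/G+ and of 7.55, 7.82 and 7.43 in A-/G+, and was 2.08 higher in A-/G+ (limma, adjusted p = 0.0038). Ccnd1, which encodes the cell cycle protein cyclin D1 and has other inputs besides Wnt, was 1.32 higher in A-/G+ (limma, adjusted p = 0.00451). Nkd1, a feedback gene that acts on Dishevelled, was 0.39 higher in A-/G+ by its brighter probe (limma, adjusted p = 0.0481) and 0.78 higher by its dimmer probe (limma, adjusted p = 0.0283). Its relative Nkd2 passed the test by its dimmer probe alone, which was below the background limit on each A-/G+ array. That probe is given as at least 1.68-fold higher in A+/G+ (limma, adjusted p = 0.0494). The brighter Nkd2 probe differed by 0.49 with overlapping arrays (limma, adjusted p = 0.555), so that the limit holds for the dimmer probe only.

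Of 19 Wnt ligand genes, 5 passed the test, all with the higher signal in A+/G+, and 5 were not well above background on any array. Wnt4 had log2 signals of 10.03, 10.31 and 10.31 in A+/G+ and of 8.40, 7.66 and 7.14 in A-/G+, a difference of 2.49 (limma, adjusted p = 0.0201). Wnt7a was 2.39 higher (limma, adjusted p = 0.018), Wnt5b 2.05 (limma, adjusted p = 0.00586), Wnt9a 1.29 (limma, adjusted p = 0.0212) and Wnt5a 0.79 (limma, adjusted p = 0.0159). The Wnt9a probe was well above background on 2 of the 3 A-/G+ arrays. With the 75th percentile shift, 4 of the 17 pathway genes missed the threshold, Wnt5a and Rspo2 with an adjusted p of 0.0501 each, Dvl1 with 0.0963 and Nkd1 with 0.129 (limma). Wls, which carries Wnt ligands to the cell surface, was 1.43 higher in A+/G+ (limma, adjusted p = 0.0119), and Dvl1, which relays the receptor signal, was 0.43 higher in A-/G+ (limma, adjusted p = 0.045). These were the 2 genes of 17 in the secretion and core pathway list that passed the test. The probes of Gsk3b, a kinase of the destruction complex, disagreed. The brightest had a difference of -0.70 (limma, adjusted p = 0.0749), a dimmer probe passed with -0.60 (limma, adjusted p = 0.0475), and the remaining probe had 0.25 (limma, adjusted p = 0.259) with all A+/G+ arrays above all A-/G+ arrays.

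Of 16 receptors and co-receptors, 3 passed with the higher signal in A+/G+ and Fzd1 with the higher signal in A-/G+. Fzd9 had log2 signals of 12.09, 12.27 and 12.22 in A+/G+ and of 9.55, 10.06 and 9.33 in A-/G+, and was 2.54 higher in A+/G+ (limma, adjusted p = 0.00681). Fzd8 was 1.67 higher (limma, adjusted p = 0.0178) and Fzd10 was 1.48 higher (limma, adjusted p = 0.0109). The Fzd8 probe was well above background on only 1 of the 3 A-/G+ arrays. Over the main processing and its alternatives, the Fzd8 difference ran from 0.762 to 1.84. Fzd1 ran the other way, with log2 signals of 9.34, 9.56 and 9.65 in A+/G+ and of 11.53, 11.76 and 11.02 in A-/G+, a difference of -1.92 (limma, adjusted p = 0.0132). Of 6 R-spondin and receptor genes, Rspo2, whose product amplifies Wnt signals, passed the test with a difference of 3.15 (limma, adjusted p = 0.00946). Since Rspo2 was well above background on 0 of the A-/G+ arrays, it is given as at least 1.61-fold higher in A+/G+.

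**Figure D3:**
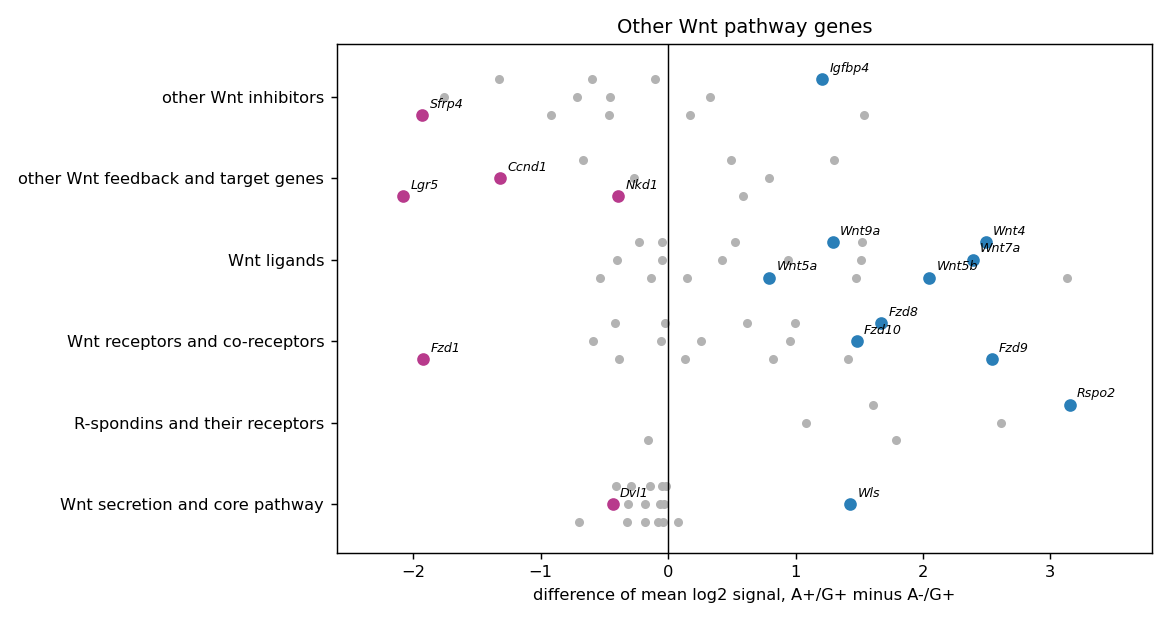
Difference of the mean log2 signal, A+/G+ minus A-/G+ (horizontal axis), for each of 80 other Wnt pathway genes, by list. Named blue and magenta points passed the test with higher signal in A+/G+ (11 genes) and A-/G+ (6 genes), and grey points did not. The ligand list has 5 points in blue and 0 in magenta.

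Some markers of cell types other than the sorted glial precursors were, like Frzb, the ligands that passed and Rspo2, higher in A+/G+. The meningeal fibroblast list had 5 of 10 genes higher in A+/G+ by the test and all 10 means higher there, with every gene well above background on all 6 arrays. Its summed signal on the linear scale was 101000, 115000 and 94100 in A+/G+ and 44700, 31000 and 15500 in A-/G+. The endothelial list had 2 of 10 genes past the test, with sums of 10100 to 14700 in A+/G+ and 2190 to 9160 in A-/G+, the highest of the latter in replicate 3. The list of pericytes and smooth muscle had 3 of 8 genes past the test, with sums of 4610 to 5470 and 1160 to 1810, respectively. The ependymal list had 5 of 7 genes past the test, with sums of 8770 to 15000 and 571 to 1740. The choroid plexus list had 0 of 8 genes past the test, and its sums overlapped at 24800 to 39000 and 23500 to 56600. Of the Bergmann glia list, 6 of 9 genes were, like Wif1 and Sfrp4, higher in A-/G+, whereas Fabp7 (0.06), Ptprz1 (0.68) and Etv4 (-0.20) did not pass the test. The sums of this list overlapped too, at 120000 to 128000 in A+/G+ and 107000 to 164000 in A-/G+, but Fabp7 made up 60.3% to 72.5% of them. Without Fabp7, which was left out after the values were seen, the sums of the other 8 genes did not overlap, at 34000 to 36700 in A+/G+ and 40300 to 54600 in A-/G+. The part of these markers in the results was not tested.

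Other lists that moved with the fractions were those of Purkinje cells, with 6 of 8 genes past the test and higher in A+/G+, and of the oligodendrocyte lineage, with 4 of 7 past it, 3 of them higher in A+/G+. For Purkinje cells, Calb1, Car8, Foxp2 and Skor2 did not reach the background limit on the A-/G+ arrays. The list of the GABAergic interneuron lineage had 3 of 7 genes past the test, 2 of them higher in A-/G+. The granule neuron lineage had 1 of 8 genes past it, higher in A-/G+, microglia had 1 of 8, higher in A+/G+, and the erythroid list had 0 of 4 past the test.

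**Figure D4:**
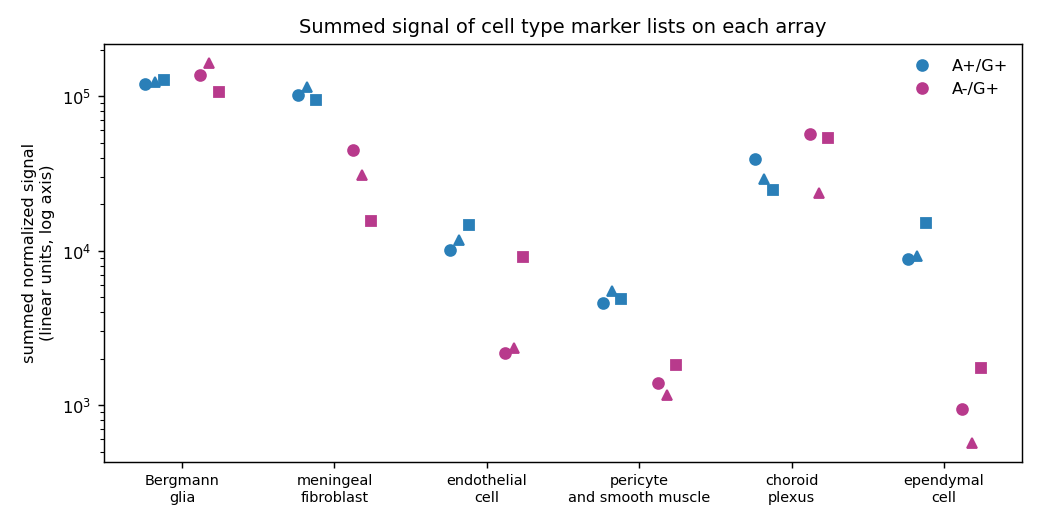
Summed normalized signal (vertical axis, linear units on a log axis) of 6 lists of cell type marker genes on each array, with A+/G+ in blue and A-/G+ in magenta; circles, triangles and squares are replicates 1, 2 and 3. The meningeal, endothelial, pericyte and ependymal sums of all A+/G+ arrays lie above those of all A-/G+ arrays, whereas the choroid plexus sums and the Bergmann glia sums, most of which is Fabp7, overlap.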

How the data were processed

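RNA of 6 magnetically sorted samples, 3 per fraction, was measured on Agilent mouse arrays with 1 color and 62976 spots each. The sample labels give CD1 mice at postnatal days 1 to 3, and both strain and age differ from the study's methods, which name C57BL/6 for wild-type mice. The authors deposited the intensity of each spot as the scanner software Feature Extraction 10.7.3.1 gave it once it had corrected the background. A second table deposited by the authors holds quantile normalized log2 values and was used as an alternative.

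Of the gene spots, 1008 that the software marked as outliers were dropped, as were all controls. The log2 intensities were quantile normalized, spots of 1 probe were averaged, and the 55681 probes were fitted together in limma 3.58.1 (R 4.3.3), group against group, with Benjamini-Hochberg adjustment at 0.05. The size limit of 4-fold between medians is that of the study's methods, which used Student's test in place of limma. No filter on dim probes was applied, so that all 10 genes entered the test. The fit was tested on simulated data. It recovered 66.5% of 200 changes of 3 log2 units planted among 55660 probes, with 14 false calls. In the measured data 9.29% of probes passed, and the simulation gave both fractions the same SD for a probe. The share recovered is therefore not the power of the test on these data. A gene that did not pass may still differ. Gene names are those of the array's annotation. Each gene is represented by its brightest probe. Named were all 10 genes and, for those of them that passed, the 3 most similar genes each. Also named were the genes of each pathway list that passed the test, at most 5 in each direction. Nkd2, Gsk3b and Wnt16, which passed by a dimmer probe alone, were added after their values were seen. The genes and lists were chosen with earlier results of these data known, so that their counts are descriptions. Alternatives were a 75th percentile shift, normexp (offset 50) for the background, a filter on dim probes, the authors' table, outlier spots kept, limma's trend and robust options, the methods' t-test, the mean over a gene's probes, a 2-fold limit, leaving out each array in turn and a block for the replicate number. Slide could not be fitted as a block, since each fraction lay on its own slide. The number of arrays limits the precision.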

Additional observations from a re-analysis of the deposited data

How the results depend on the processing

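The direction of 9 of the 10 genes held under every alternative that was run. Dkk1, which was not above background on any array, turned from 0.155 to -1.22 with the 75th percentile shift (limma, adjusted p = 0.0792), to -0.00479 with normexp background correction (limma, adjusted p = 0.983) and to -0.0681 without A+/G+ replicate 2 (limma, adjusted p = 0.942), within a range of -0.0681 to 0.434 with 1 array left out. Under the 75th percentile shift the median difference over all probes was itself -1.02. Wif1 passed the test in 15 of 16 settings, the planned one included, with differences from -3.35 to -2.79, and Frzb in 11 of 16, with differences from 0.768 to 3.27.

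The number of the 10 genes higher in A+/G+ was 1, and it was 2 with normexp background correction, 2 with the filter on dim probes and 0 to 2 with 1 array left out. The number higher in A-/G+ was 1, and it was 2 with the 75th percentile shift, 2 with normexp background correction and 1 to 2 with 1 array left out. With medians at least 4-fold apart as well, the number higher in A+/G+ was 0 with normexp background correction and 0 to 1 with 1 array left out, and the number higher in A-/G+ was 2 with the 75th percentile shift and 1 to 2 with 1 array left out. Of the other 80 Wnt pathway genes, 19 had the higher signal in A+/G+ and 10 in A-/G+ with normexp background correction, 17 were higher in A+/G+ with the filter on dim probes, and the counts ran from 3 to 19 and from 3 to 11 with 1 array left out. The filter on dim probes left fewer probes tested (25178) and dropped Dkk1 and Dkk2. Of the 17 pathway genes, Wnt5a, Rspo2, Dvl1 and Nkd1 lost their call with the 75th percentile shift. The cause of the other changes was not tested. Over all probes, the calls in the direction of A+/G+ and A-/G+ were 2589 and 2583, and they were 1227 and 2658 with the 75th percentile shift, 1351 and 1197 with the methods' t-test, and 4437 and 4578 without A-/G+ replicate 3, whereas without an A+/G+ replicate they were 816 to 1021 and 404 to 577.

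Whether the replicate numbers pair the samples could not be settled, as deviations from the mean of 3 arrays depend on each other. The deviations of same-numbered arrays from their group means correlated at 0.196, 0.113 and -0.114 over 17957 probes. A+/G+ replicate 1 correlated best with its own number. A+/G+ replicates 2 and 3 correlated best with another number, replicate 2 at 0.118 against 0.113. With the replicate number as a block, limma called 0 of 55681 probes, hence 0 of the 10 genes in either direction with or without the 4-fold limit and 0 of the 80 other pathway genes in either direction. At an unadjusted p of 0.05, that fit called 11671 probes, 5 of the 10 genes and 32 of the 80. The adjusted p of Wif1 was 0.0781 and that of Frzb 0.0958 under the block, with differences of -3.08 and 2.91 as before. The lower brightness of the A-/G+ arrays limits what can be read of dim genes there, Frzb, Dkk1, Dkk2, Rspo2 and Fzd8 among them.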
